A study of Homo sapiens with 12 samples.

Results

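The genes described here are the interleukins and their receptors, taken as every entry of the deposited gene table whose symbol starts with IL and a digit, leaving out symbols with a hyphen (antisense and readthrough transcripts) and pseudogenes. This gave 85 of 59276 genes, after 13 of the 98 symbols that start this way had been left out. RNA sequencing was done on JJN3, an established human multiple myeloma cell line, in 4 groups of 3 samples. One pair of groups was JJN3 kept for 3 days with DMSO, the solvent, or with 10 µM MS023, an inhibitor of type I protein arginine methyltransferases (PRMTs), the enzymes that place asymmetric dimethyl marks on arginine. The other pair was JJN3 carrying a doxycycline (Dox)-inducible guide RNA, isgCtrl as the control or iPRMT1_1 against PRMT1 (the latter called PRMT1-KO below), and both lines were given Dox for 3 days. According to the study's methods, the guide cells were first transduced with a Cas9 virus carrying mCherry, sorted, transduced with the guide virus and selected with puromycin, so they were selected pools, with no cloning step described. Each guide was used in a single line. Cas9 was not stated for the DMSO and MS023 cells, and Cas9, the guide vector and Dox cannot be told apart from DMSO in any difference between isgCtrl and DMSO.

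Interleukins are secreted signalling proteins that bind receptors on the same or neighbouring cells. Most receptors pair a chain that recognises 1 ligand with a chain shared by several ligands, such as the common gamma chain IL2RG or gp130 (IL6ST), and pass the signal to JAK kinases and STAT transcription factors, whereas receptors of the IL1 and IL17 families use the adaptors MyD88 and Act1. In multiple myeloma, a cancer of plasma cells, IL6 is a known growth and survival factor, and the cells carry its receptor.

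Levels below are log2(TPM+1), where TPM is the usual abundance unit of RNA sequencing, a value scaled for gene length and for the total of each library, and a level of 1 equals 1 TPM. Read depth is unknown from such values. Replicates correlated across genes, which are not independent replicates, at r = 0.993 to 0.996, and 20988 to 22241 genes were above 0 in a sample. All 8 plasma cell markers had a mean above 1 in DMSO and in MS023, 7 in isgCtrl and 5 in PRMT1-KO, with a summed level of 716 to 755 TPM, 1153 to 1197 TPM, 653 to 667 TPM and 627 to 631 TPM. None of 4 B cell, 5 T cell or 5 myeloid markers passed a mean of 1 in any group, with sums of at most 1.25 TPM for T cell and 3.09 TPM for myeloid markers. Of 4 fibroblast markers, COL1A1 and COL1A2 had means above 1 in MS023 (summed level of the list 3.80 to 4.50 TPM) and isgCtrl (1.05 to 11.9 TPM) and none did in DMSO (0.827 to 2.48 TPM) or PRMT1-KO (0.286 to 1.72 TPM). PRMT1 was at 9.76, 9.76 and 9.73 in isgCtrl and at 8.24, 8.28 and 8.24 in PRMT1-KO, a fall of 1.50 (log2 scale, SE 0.04, limma adjusted p = 7.2e-04, and 0.149 with a replicate block), while it was at 9.31 to 9.39 in DMSO and 9.36 to 9.45 in MS023. These are bulk samples, so a lower share of cells with a transcript and less of it per cell cannot be told apart.

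Of the 85 genes, 26 had a mean above 1 in at least 1 group, and the plot of levels in all samples shows them. They were 7 of 42 ligands, 17 of 41 receptor chains, the decoy binding protein IL18BP and the enzyme IL4I1, an amino acid oxidase named after its induction by IL4. The other 59 genes stayed at a mean of 1 or below in every group, with a highest single value of 1.19 (IL20RB), and 10 of them (IL36B, IL36RN, IL1F10, IL4, IL9, IL13, IL3, IL31, IL22RA2 and IL25) were listed at 0 in every sample. All 11 IL1 family ligands were in the low set, with 7 of 10 members of the IL1 receptor group. So were 6 of 7 ligands and 6 of 10 receptors of the common gamma chain and IL13 group, and 3 of 4 genes of the IL3 and IL5 group. The set also held 5 of 7 ligands and 3 of 8 receptors of the IL6 and IL12 group. From the IL10 group it held 5 of 6 ligands and 4 of 6 receptors, and from the IL17 group 5 of 6 ligands and 3 of 6 receptors. The last low gene was IL34, a ligand of the receptor CSF1R. IL32, a cytokine with no settled receptor, led in every group with a mean of 717 ± 40.8 TPM in DMSO and made up 68.0 ± 1.68% (SD, n = 3) of the summed TPM of the 85 genes there. IL2RG came second in every group, at 97.7 ± 4.0 TPM in DMSO. In DMSO it was followed by IL4I1 with 55.5 TPM, IL6R with 47.6 TPM, IL6ST with 31.2 TPM and IL1RAPL2 with 12.5 TPM.

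**Figure D1:**
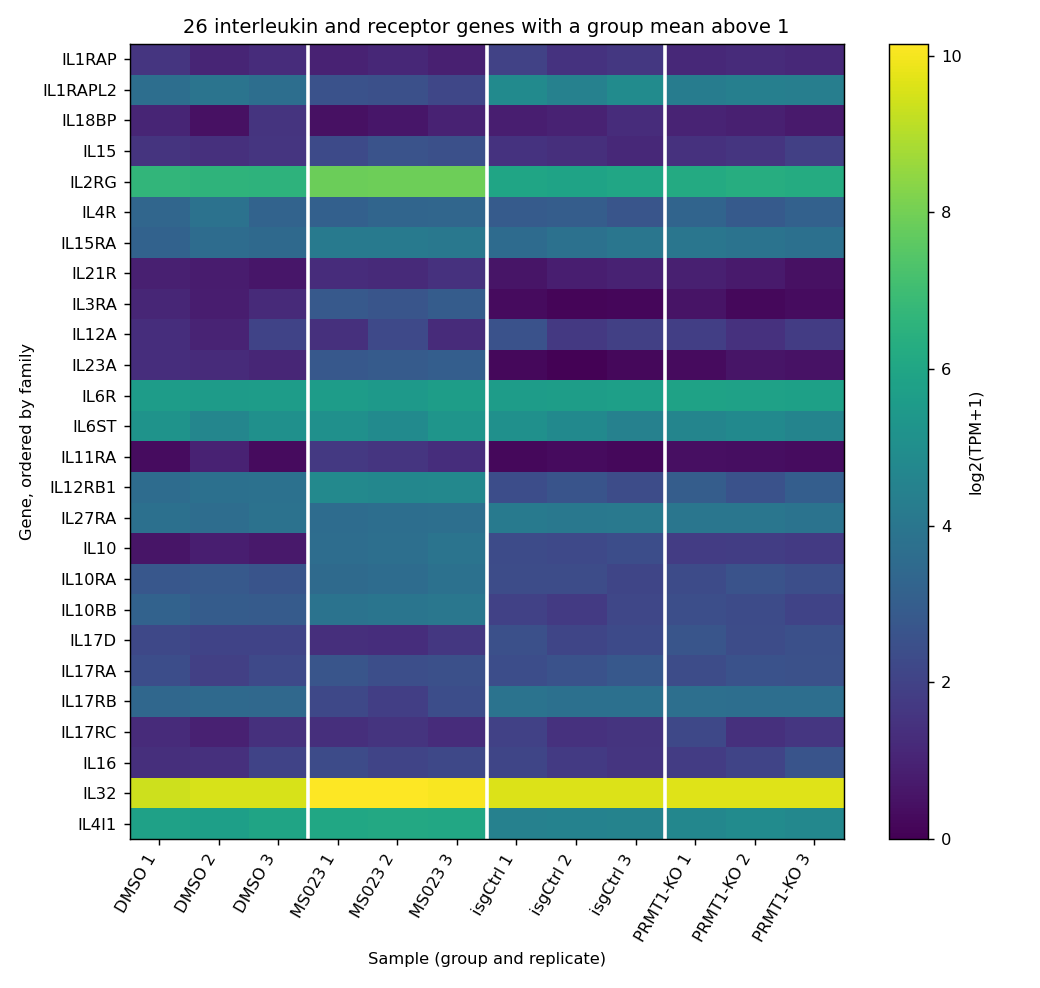
Level, as log2(TPM+1), of the 26 genes with a group mean above 1 (vertical axis, ordered by family) in the 12 samples (horizontal axis, 4 groups of 3 parted by white lines). IL32 is the brightest line in every sample, and IL10, IL3RA and IL23A are brighter in the 3 MS023 samples than in the other 9.

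The IL10, IL3RA, IL23A and IL2RG genes had the largest rises with MS023 and stand first in the results below, so the 250 bases upstream of their RefSeq starts are printed (assembly GRCh38.p14, 5′ to 3′ on the gene's strand). They lie at chr1:206772495-206772744 on the minus strand, chrX:1336535-1336784 on the plus strand, chr12:56338634-56338883 on the plus strand and chrX:71111578-71111827 on the minus strand. The gene extents in GENCODE begin further upstream, so that by them the windows of IL10, IL23A and IL2RG lie inside the gene and that of IL3RA lies partly inside, and which start the cells used was not tested. Capitals mark matches to the letters searched on both strands for 4 kinds of factor that act in cytokine signalling, which were TTCNNNGAA for STAT proteins, the interferon response element (ISRE), TGANTCA for AP-1 and the NF-kB consensus.
IL10: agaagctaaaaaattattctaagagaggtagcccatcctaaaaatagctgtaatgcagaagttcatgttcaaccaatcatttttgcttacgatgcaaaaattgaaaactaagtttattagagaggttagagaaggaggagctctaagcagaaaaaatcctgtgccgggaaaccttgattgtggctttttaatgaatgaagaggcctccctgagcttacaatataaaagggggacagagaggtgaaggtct
IL3RA: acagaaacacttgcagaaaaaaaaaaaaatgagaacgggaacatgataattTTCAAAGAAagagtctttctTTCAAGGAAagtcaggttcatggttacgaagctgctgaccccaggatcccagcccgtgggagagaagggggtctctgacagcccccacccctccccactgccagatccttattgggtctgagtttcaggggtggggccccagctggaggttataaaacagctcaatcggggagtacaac
IL23A: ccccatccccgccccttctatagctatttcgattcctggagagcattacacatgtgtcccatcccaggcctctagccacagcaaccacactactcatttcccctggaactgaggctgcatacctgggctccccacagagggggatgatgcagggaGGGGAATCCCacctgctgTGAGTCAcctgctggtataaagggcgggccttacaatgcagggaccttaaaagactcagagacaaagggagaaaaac
IL2RG: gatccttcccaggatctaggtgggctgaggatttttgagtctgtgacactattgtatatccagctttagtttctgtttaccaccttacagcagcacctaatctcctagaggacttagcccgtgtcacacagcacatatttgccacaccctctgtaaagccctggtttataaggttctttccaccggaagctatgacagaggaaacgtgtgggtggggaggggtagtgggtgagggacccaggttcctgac
The IL3RA sequence held 2 matches to the STAT letters, starting 199 and 179 bases upstream, and IL23A held an NF-kB match starting 95 bases upstream and an AP-1 match starting 77 bases upstream. The IL10 and IL2RG windows held none of the 4. Over the 69 of 85 genes with a promoter in the table, STAT letters were in 4 and the ISRE in 4, against 6.78% and 3.07% of all 27305 promoters, while AP-1 letters were in 11 and the NF-kB consensus in 10, against 6.60% and 5.05% of all. Of the 12 with a promoter among those that rose with MS023, 2 held STAT letters (IL15RA and IL3RA), 2 AP-1 letters (IL10RA and IL23A), 2 the NF-kB consensus (IL23A and IL32) and 0 the ISRE. Of the 3 that fell, 1 (IL17D) held both STAT letters and the NF-kB consensus, and 0 held AP-1 letters or the ISRE. A match describes letters in this window and is not a bound site.

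With MS023, 13 of the genes rose, 3 fell and 10 of the 26 tested did not pass. A gene was tested where its mean level was above 1 in either group, and called where the limma adjusted p (Benjamini-Hochberg over all 12903 genes tested) was under 0.05 and the log2 fold change was above 0.48 in size. By the same rule 30.9% of all genes tested were called, 11.6% as higher and 19.3% as lower. The median log2 fold change was 0.45 over the 26 genes and -0.11 over all genes tested. IL10, IL21R and IL11RA passed the filter only through MS023, where they were high, and IL1RAP and IL18BP only through DMSO, so neither the count nor the median covers all 85. Scaling the libraries by median ratios moved the share of lower genes among all called genes from 62.4% to 50.7% and left the 13 and 3 as they were. The summed plasma cell markers were also higher in MS023 than in DMSO (above), but not every marker rose. The lowest mean level among the 8 was 2.57 in DMSO and 1.69 in MS023, and the highest 7.81 and 8.96. The part of these markers in the changes was not tested. The labels do not say that the samples of a group came from separate cultures, so p-values measure the spread between these samples, which may be technical, and an exact permutation test of 3 against 3 samples cannot go below p = 0.1.

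Among the ligands, IL10, which restrains macrophages and T cells and supports B cell and plasma cell growth, moved furthest. Its level was 0.58, 0.87 and 0.71 in DMSO and 3.63, 3.70 and 3.91 in MS023, against 2.33, 2.24 and 2.42 in isgCtrl. The groups did not overlap, and the control groups lay further apart than the samples within either of them. The rise with MS023 was 3.03 (log2 scale, SE 0.11, 95% interval 2.76 to 3.30, limma adjusted p = 5.5e-05), from 0.65 ± 0.166 to 12.5 ± 1.41 TPM (SD, n = 3). IL10 (chr1:206767602-206774541, minus strand) overlaps IL19 on the other strand, and the sources used here do not say whether strand was used in quantification. IL19, of the same family, had mean levels of 0.19 in DMSO and 0.67 in MS023, and the neighbouring IL20 and IL24 had 0.01 and 0.27 in MS023.

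IL23A encodes the p19 subunit, which forms IL23 together with the p40 subunit from IL12B. It was at 1.33, 1.26 and 1.08 in DMSO and 2.78, 2.91 and 3.05 in MS023, with 0.04 to 0.22 in isgCtrl. All 3 MS023 samples lay above every other sample. The rise was 1.69 (SE 0.10, limma adjusted p = 1.4e-04), from 1.34 to 6.55 TPM. IL12B had a mean of 0.00 in DMSO and 0.02 in MS023, and IL23R, which recognises IL23, had 0.03 and 0.00. IL12A, the p35 subunit that pairs with IL12B to form IL12, had means of 1.45 and 1.63 and did not pass (0.17, 95% interval -0.69 to 1.04, limma adjusted p = 0.705).

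IL15, a growth factor for natural killer and memory T cells, and IL15RA, the chain that presents it to neighbouring cells, both rose. IL15 was at 1.51, 1.42 and 1.57 in DMSO and 2.29, 2.61 and 2.49 in MS023, a rise of 0.96 (SE 0.10, limma adjusted p = 7.7e-04). IL15RA was at 3.18, 3.60 and 3.48 in DMSO and 4.13, 4.20 and 4.05 in MS023, a rise of 0.71 (SE 0.12, limma adjusted p = 0.00462). Neither gene's groups overlapped. Of the chains that respond to IL15, IL2RG rose (below) and IL2RB had a mean of 0.00 in DMSO and 0.35 in MS023.

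IL32, IL16 and IL17D complete the ligands above a mean of 1 and moved in different directions. IL32 was at 9.39, 9.55 and 9.52 in DMSO and 10.15, 10.12 and 10.05 in MS023, a rise of 0.62 (SE 0.07, limma adjusted p = 0.00109) from 717 ± 40.8 to 1103 ± 39.6 TPM. It added more TPM than any other of the 85 genes, whose sum went from 1055 ± 35.5 to 1636 ± 27.7 TPM (SD, n = 3). IL16, a T cell chemoattractant cut from a larger precursor, was at 1.38, 1.40 and 2.05 in DMSO and 2.31, 2.08 and 2.19 in MS023. DMSO replicate 3 lay close to the MS023 samples, and the rise of 0.58 (SE 0.20, limma adjusted p = 0.0492) was lost under 9 of 13 alternatives, with adjusted p up to 0.135. IL17D, a member of the IL17 family, fell from 2.20, 2.04 and 2.06 to 1.38, 1.32 and 1.63 (log2 fold change -0.66, SE 0.10, limma adjusted p = 0.00324).

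Among the receptors the largest rise was that of IL3RA (CD123), the chain that recognises IL3. Its level was 1.10, 0.80 and 1.20 in DMSO and 2.84, 2.68 and 2.96 in MS023, with 0.15 to 0.31 in isgCtrl, so that the MS023 samples stood alone. The rise was 1.80 (SE 0.13, 95% interval 1.48 to 2.11, limma adjusted p = 2.3e-04), from 1.06 to 6.12 TPM. CSF2RB, the beta common chain through which IL3RA signals, rose from a mean of 3.34 to 4.0 (0.66, SE 0.09, limma adjusted p = 0.00182), whereas the ligand IL3 was listed at 0 in every sample. IL3RA lies in the pseudoautosomal region of the X chromosome (chrX:1336616-1382689, plus strand).

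IL2RG, the common gamma chain of the receptors for IL2, IL4, IL7, IL9, IL15 and IL21, was at 6.69, 6.61 and 6.58 in DMSO and 7.87, 7.91 and 7.89 in MS023. The samples of each group lay close together and the groups were far apart. The rise was 1.27 (SE 0.06, 95% interval 1.12 to 1.42, limma adjusted p = 8.3e-05), from 97.7 ± 4.0 to 236 ± 3.19 TPM. Of the chains that pair with it, IL15RA rose (above), and IL21R, the IL21 receptor, was at 0.91, 0.77 and 0.60 in DMSO and 1.29, 1.19 and 1.44 in MS023. The rise of IL21R was 0.54 (SE 0.11, limma adjusted p = 0.0081), and without DMSO replicate 3 or MS023 replicate 3 it went below the fold threshold (adjusted p 0.0232 and 0.0245). IL4R, the IL4 receptor, had means of 3.48 and 3.27 and did not pass (-0.20, 95% interval -0.62 to 0.21, limma adjusted p = 0.36). IL7R had means of 0.02 and 0.08.

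Both chains of the IL10 receptor rose, as did their ligand. IL10RA, the chain that recognises IL10, was at 2.77, 2.84 and 2.65 in DMSO and 3.52, 3.57 and 3.77 in MS023, a rise of 0.87 (SE 0.09, limma adjusted p = 8.8e-04). IL10RB, the accessory chain, was at 3.19, 2.95 and 2.93 in DMSO and 3.86, 3.93 and 4.01 in MS023, a rise of 0.91 (SE 0.09, limma adjusted p = 7.5e-04). For both chains every MS023 sample was above every DMSO sample. The other 4 receptors of this group, IL20RA, IL20RB, IL22RA1 and IL22RA2, stayed in the low set.

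In the IL6 and IL12 receptor group, IL12RB1 and IL11RA rose and IL6R, IL6ST and IL27RA did not pass. IL12RB1, the chain shared by the IL12 and IL23 receptors, was at 3.61, 3.77 and 3.78 in DMSO and 4.77, 4.71 and 4.75 in MS023, a rise of 1.03 (SE 0.07, limma adjusted p = 2.2e-04), while its IL12 partner IL12RB2 had means of 0.02 and 0.04. IL11RA, the IL11 receptor, was at 0.33, 0.98 and 0.29 in DMSO and 1.69, 1.56 and 1.33 in MS023, a rise of 0.99 (SE 0.21, limma adjusted p = 0.00958). These groups did not overlap either, although the second DMSO sample of IL11RA was well above the other two. IL12RB1 overlaps MAST3, and IL11RA overlaps CCL27, on the other strand. The same holds for IL6R and IL6R-AS1, IL16 and STARD5, IL21R and IL21R-AS1, IL12A and IL12A-AS1, IL18BP and NUMA1, and IL1RAPL2 and TEX13A, while IL4I1 overlaps NUP62 on its own strand. Overlaps on the same strand were also those of IL1RAPL2 with RPL18AP14 and KCTD9P2, IL32 with RNU1-125P, and IL1RAP with GCNT1P3 and RN7SKP296. Reads of such pairs may have been split between the genes in quantification.

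The receptor of the myeloma growth factor IL6 did not pass. IL6R was at 5.61, 5.58 and 5.62 in DMSO and 5.62, 5.45 and 5.64 in MS023, a difference of -0.03 (95% interval -0.22 to 0.15, limma adjusted p = 0.740), and of 0.07 with median-ratio scaling. The signalling chain IL6ST was at 5.22, 4.66 and 5.09 in DMSO and 5.10, 4.85 and 5.28 in MS023, a difference of 0.09 (95% interval -0.35 to 0.53, limma adjusted p = 0.707). The groups of both genes overlapped. For IL27RA, which recognises IL27, the difference was -0.07 (95% interval -0.27 to 0.13, limma adjusted p = 0.500), at means of 3.73 and 3.66, and 0.03 with median-ratio scaling. IL6 itself was in the low set.

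IL17RB and IL1RAPL2 were the receptors that fell. IL17RB, which recognises IL17B and IL25, was at 3.40, 3.46 and 3.44 in DMSO and 2.20, 1.88 and 2.41 in MS023 (log2 fold change -1.27, SE 0.14, limma adjusted p = 8.5e-04), from 9.80 to 3.53 TPM. IL1RAPL2, an IL1 receptor family member best known from the brain, was at 3.67, 3.91 and 3.67 in DMSO and 2.56, 2.48 and 2.17 in MS023 (log2 fold change -1.35, SE 0.13, limma adjusted p = 5.8e-04), from 12.5 to 4.32 TPM. The groups lay apart for both. IL17RA, the chain shared by most IL17 receptors, had means of 2.19 and 2.54 (0.35, 95% interval -0.01 to 0.70, limma adjusted p = 0.0925) and IL17RC, its partner for IL17A, 1.19 and 1.40 (0.21, 95% interval -0.13 to 0.54, limma adjusted p = 0.252). IL1RAP, the accessory chain of the IL1 receptor, had means of 1.30 and 0.99 (-0.31, limma adjusted p = 0.138), and IL18BP, which binds and blocks IL18, 1.01 and 0.69 (-0.32, limma adjusted p = 0.379). IL4I1 was at 5.79, 5.73 and 5.93 in DMSO and 6.04, 6.11 and 6.10 in MS023, a difference of 0.27 (SE 0.07, limma adjusted p = 0.0267) that was under the fold threshold.

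**Figure D2:**
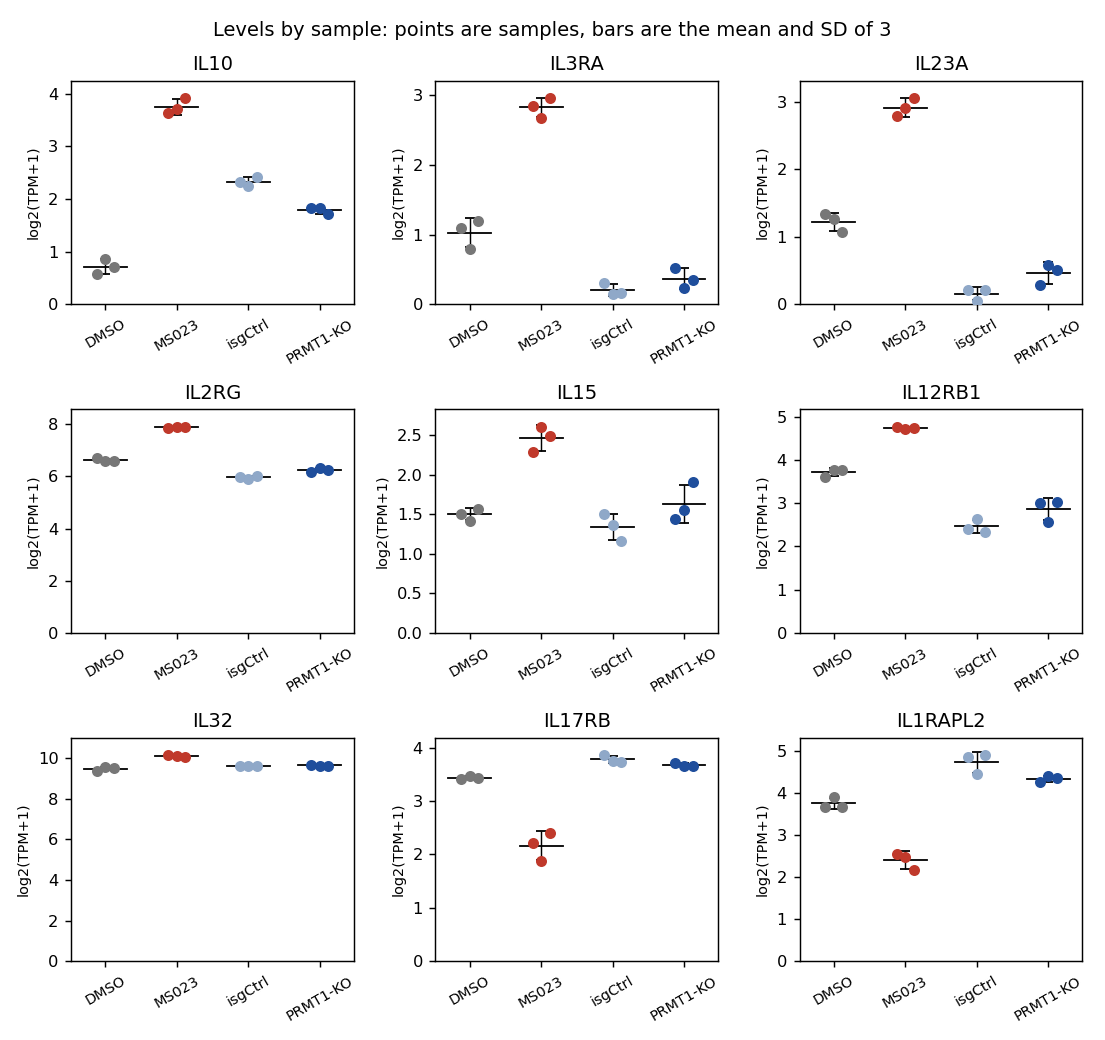
Level, as log2(TPM+1) on an axis that starts at 0, of 9 genes that were called with MS023, in DMSO, MS023, isgCtrl and PRMT1-KO. Points are samples and bars are the mean and SD of 3. For IL10, IL3RA, IL23A, IL2RG, IL15, IL12RB1 and IL32 the MS023 samples lie above all others, and for IL17RB and IL1RAPL2 below all others.

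In PRMT1-KO, 1 of the 22 genes tested was called, IL10, against 0.781% of the 12285 genes tested in this comparison, and it was lower. Its level was 2.33, 2.24 and 2.42 in isgCtrl and 1.82, 1.83 and 1.71 in PRMT1-KO, groups that did not overlap. The change was -0.54 (SE 0.07, 95% interval -0.71 to -0.38, limma adjusted p = 0.0352), from 4.03 ± 0.302 to 2.45 ± 0.159 TPM (SD, n = 3). This call was lost with all genes above 0 tested (adjusted p 0.0531), with a replicate block (0.176) and without any 1 of the 6 samples (0.1 to 0.126), and the sign stayed negative in each. At an unadjusted limma p under 0.05 there were 8 of the 22 genes, beside 18.6% of all genes tested, and the median log2 fold change was 0.10 over the 22 genes and -0.04 over all genes tested.

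None of the other genes called with MS023 was called in PRMT1-KO. IL2RG was at 5.97, 5.89 and 6.01 in isgCtrl and 6.19, 6.31 and 6.24 in PRMT1-KO, a difference of 0.29 (95% interval 0.14 to 0.43, limma adjusted p = 0.0978) with no overlap between the groups. IL32 was at 9.62, 9.63 and 9.63 against 9.67, 9.64 and 9.64, a difference of 0.02 (95% interval -0.09 to 0.13, limma adjusted p = 0.845), so that a change of the size seen with MS023 was outside the interval. IL12RB1, at 2.41, 2.64 and 2.34 against 3.00, 2.56 and 3.04, differed by 0.40 (95% interval 0.03 to 0.78, limma adjusted p = 0.245). IL3RA and IL23A had means of 0.37 and 0.46 in PRMT1-KO and of 0.21 and 0.16 in isgCtrl, and with IL21R and IL11RA they were below the filter in both groups.

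The remaining receptors and ligands of PRMT1-KO gave intervals of various widths. IL6R was at 5.63, 5.66 and 5.74 in isgCtrl and 5.87, 5.80 and 5.79 in PRMT1-KO (0.15, 95% interval 0.01 to 0.28, limma adjusted p = 0.243), and IL6ST differed by -0.09 (95% interval -0.50 to 0.32, limma adjusted p = 0.803). IL17RB differed by -0.10 (95% interval -0.24 to 0.03, limma adjusted p = 0.373) and IL15RA by 0.09 (95% interval -0.22 to 0.41, limma adjusted p = 0.729). Wider intervals were those of IL15 (0.30, -0.07 to 0.66), IL16 (0.37, -0.27 to 1.00) and IL17RC (0.10, -0.49 to 0.70). IL27RA differed by -0.17 (-0.32 to -0.02, limma adjusted p = 0.230) without overlap of the groups. Positive differences were those of IL10RB (0.32, -0.04 to 0.67), IL4R (0.25, -0.07 to 0.57), IL17D (0.20, -0.10 to 0.49) and IL10RA (0.16, -0.09 to 0.41). Negative ones were those of IL12A (-0.32, -0.94 to 0.29), IL18BP (-0.16, -0.49 to 0.16) and IL17RA (-0.09, -0.40 to 0.21). IL18BP was tested here only through its mean of 1.04 in isgCtrl, against 0.87 in PRMT1-KO. IL1RAP was at a mean of 1.71 in isgCtrl and 1.19 in PRMT1-KO, a difference of -0.52 (SE 0.13, limma adjusted p = 0.134) with groups that did not overlap. IL1RAPL2 was at 4.85, 4.45 and 4.90 against 4.26, 4.39 and 4.35 (-0.40, SE 0.13, limma adjusted p = 0.200), also without overlap. IL4I1 was at 4.47, 4.51 and 4.55 against 4.71, 4.90 and 4.72, a difference of 0.27 (SE 0.07, limma adjusted p = 0.137) of the same size as with MS023. The groups of IL4I1, IL6R, IL17RB and IL32 did not overlap either, for IL32 at a difference of 0.02. How often this happened over all genes tested was not counted, so it does not set these genes apart.

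**Figure D3:**
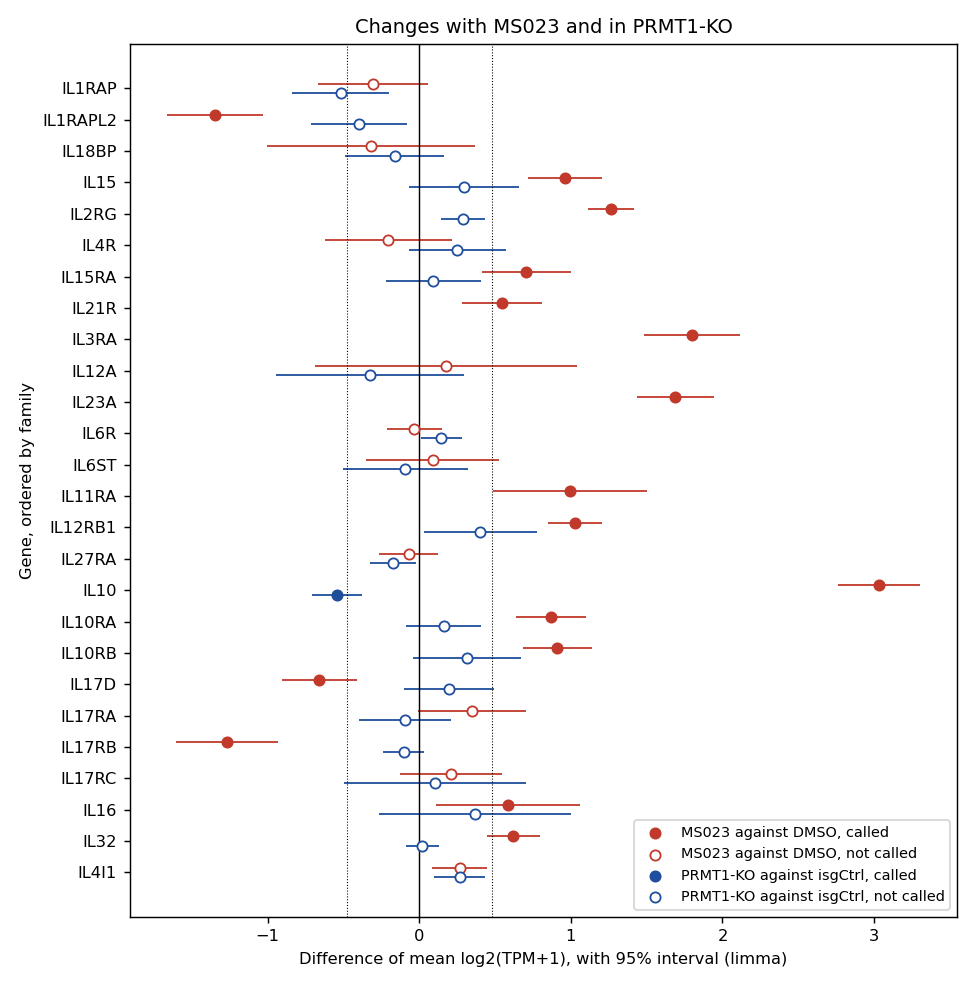
Difference of mean log2(TPM+1) (horizontal axis) with its 95% limma interval for each of the 26 genes (vertical axis), in red for MS023 against DMSO and in blue for PRMT1-KO against isgCtrl where tested. Filled points were called and dotted lines mark the fold threshold of 0.48. There are 16 filled red points, 13 to the right and 3 to the left, and 1 filled blue point, IL10, on the left while its red point is farthest to the right.

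The difference between the 2 effects, MS023 minus DMSO less PRMT1-KO minus isgCtrl, was tested in 1 limma fit of the 12 samples. It was called for 15 of the 26 genes tested, 12 with a higher and 3 with a lower value for MS023, against 24.4% of the 13256 genes tested. Among the 12, IL21R and IL11RA passed the filter of this fit only through MS023, where they were high. These comparisons used different cells and controls, so the difference also holds whatever sets the cells apart, which was not tested. IL10 came first with a difference of 3.57 (SE 0.13, limma adjusted p = 1.8e-07). Its effects had opposite signs, 3.03 with MS023 and -0.54 in PRMT1-KO. IL3RA followed with 1.64 (limma adjusted p = 5.2e-05), IL23A with 1.39 (SE 0.15, limma adjusted p = 7.6e-05) and IL2RG with 0.98 (SE 0.08, limma adjusted p = 1.1e-05). IL3RA and IL23A were below a mean of 1 in isgCtrl and PRMT1-KO, where a pseudocount of 1 makes changes look smaller. IL23A had 0.119 TPM in isgCtrl and 0.381 TPM in PRMT1-KO. It lost its call at a pseudocount of 0.1 (limma adjusted p = 0.0879), while IL3RA kept its call under every alternative. For IL32 the difference between effects was 0.60 (SE 0.08, limma adjusted p = 2.2e-04) and for IL17RB -1.17 (SE 0.15, limma adjusted p = 2.9e-04). IL4I1 did not differ beyond its error, at -0.00 with a 95% interval of -0.22 to 0.22 (limma adjusted p = 0.994).

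The control groups were not at the same level for several of these genes, which is given as values without a test because the cells were handled differently. In DMSO and isgCtrl, IL10 had means of 0.72 and 2.33, IL3RA 1.03 and 0.21, IL23A 1.22 and 0.16, IL12RB1 3.72 and 2.47, IL10RB 3.02 and 1.96, and IL4I1 5.82 and 4.51. IL1RAPL2 was higher in isgCtrl, at 4.73 against 3.75. For IL10, the MS023 samples lay above both control groups and the PRMT1-KO samples lay between them. The means of IL6R (5.60 and 5.67) and IL32 (9.49 and 9.63) in these groups were closer.

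The signalling genes downstream of the receptors were examined as 5 lists of 65 genes in all, of which 50 were tested with MS023. Of these 11 rose and 8 fell, with a median log2 fold change of -0.01, beside 30.9% of all genes called. Among 10 JAK and STAT genes, 4 rose and 1 fell. JAK3, the kinase that binds the common gamma chain, rose from a mean of 2.53 to 3.43 (0.90, limma adjusted p = 5.9e-04). STAT6, which carries IL4 signals, STAT2, an interferon factor, and STAT3, which carries IL6 and IL10 signals, rose by 0.67, 0.60 and 0.59, and STAT5B, which carries IL2 family signals, changed by -0.94.

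SOCS3, an inhibitor that binds gp130 and JAKs and is itself induced by STAT3, had the largest change of the lists. Its mean went from 2.05 in DMSO to 3.98 in MS023, a rise of 1.92 (SE 0.07, limma adjusted p = 5.5e-05), and was 1.73 in isgCtrl and 1.96 in PRMT1-KO. Of the 17 inhibitors of JAK and STAT signalling, SOCS1 rose too, by 0.58, and 5 fell. Those were CISH and SOCS2 (-0.66 and -0.75), SOCS7 (-0.56), PIAS2 (-0.75) and the phosphatase PTPN11 (-0.52). CISH passed the filter only through DMSO, where it was high, at a mean of 1.37 against 0.71 in MS023. SOCS7 and PTPN11 went under the fold threshold with median-ratio scaling. SOCS7 did so also without DMSO replicate 2 or MS023 replicate 1, and PTPN11 also without MS023 replicate 2.

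Of 12 tested genes of the MyD88 and Act1 branch, SIGIRR, an inhibitory receptor, and the kinase IRAK2 rose (0.59 and 0.53), and IRAK4 and TOLLIP fell (-0.57 and -0.51). IRAK2 passed the filter only through MS023, at a mean of 1.34 against 0.80 in DMSO, and lost its call without DMSO replicate 1 or MS023 replicate 2. The calls of IRAK4 and TOLLIP were lost with median-ratio scaling, and that of TOLLIP also without DMSO replicate 2 or MS023 replicate 1. Of 14 partners without an IL symbol 3 were tested. CRLF2, the receptor chain that recognises TSLP together with IL7R, rose from a mean of 0.47 to 2.14 (1.67, limma adjusted p = 1.8e-04) and passed the filter only through MS023, and CSF2RB rose (above). Of 8 tested genes of cytokine processing, AIM2, a DNA sensor that starts an inflammasome, rose from 3.29 to 4.39 (1.11, limma adjusted p = 0.00129), and the other 7 did not pass.

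In PRMT1-KO none of 45 genes of these lists was called by limma, beside 0.781% of all genes tested, and 9 were at an unadjusted p under 0.05, beside 18.6% of all. CSF2RB, with means of 2.79 and 3.21, had a limma adjusted p of 0.0367 and a change of 0.42 (SE 0.05) that was under the fold threshold. The difference between the 2 effects was called for 12 of 50, 7 with a higher and 5 with a lower value for MS023, beside 24.4% of all genes. CRLF2, among those with a higher value, passed the filter of that fit only through MS023.

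**Figure D4:**
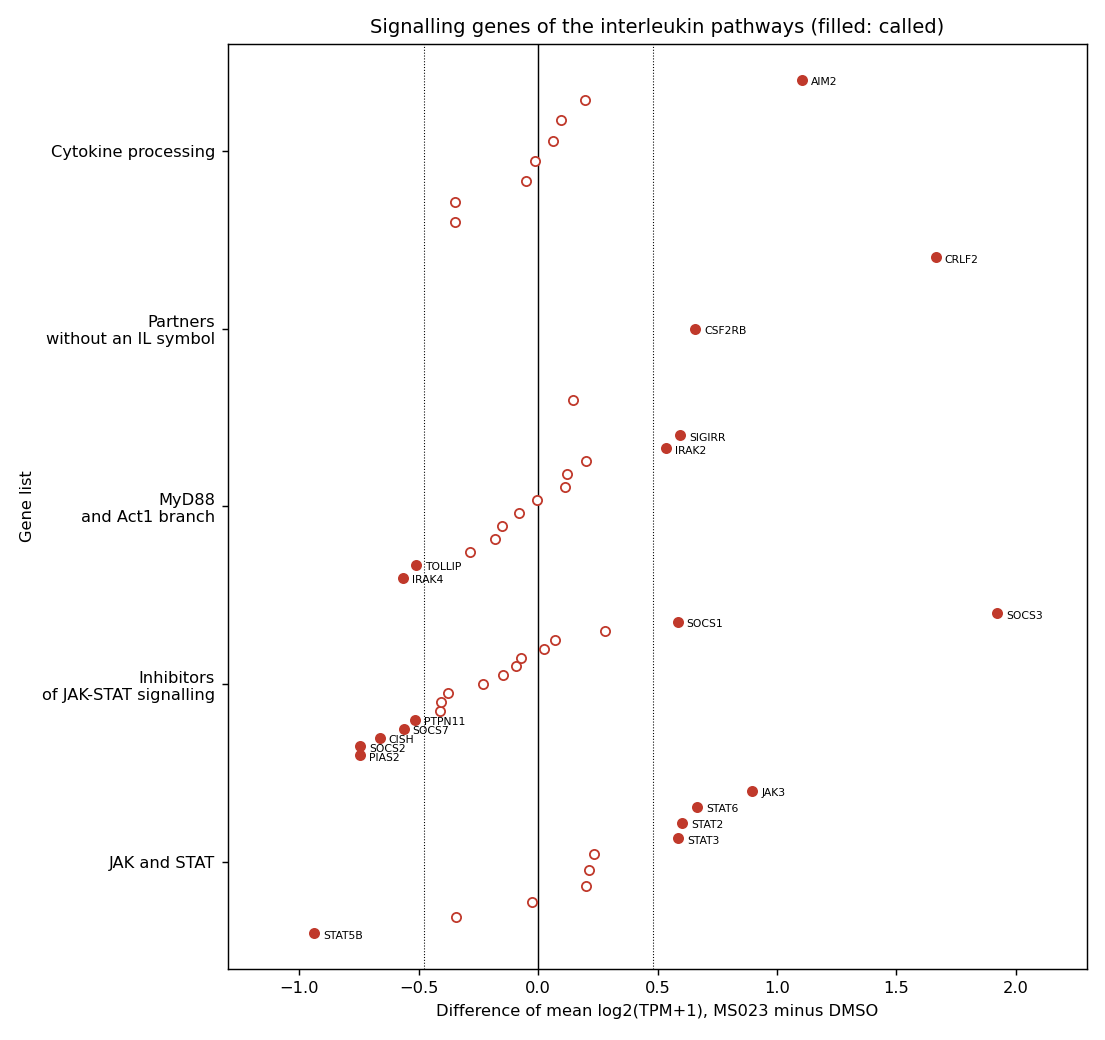
Difference of mean log2(TPM+1), MS023 minus DMSO (horizontal axis), of the 50 tested genes in 5 lists of signalling and processing genes (vertical axis). Filled points with names were called and dotted lines mark the fold threshold of 0.48. SOCS3, CRLF2 and AIM2 lie farthest to the right, at 1.92, 1.67 and 1.11, and STAT5B farthest to the left, at -0.94.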

How the data were processed

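Total RNA of 12 JJN3 samples was sequenced. Following the study's methods and processing notes, the authors checked reads with FastQC, trimmed them with Trimmomatic, aligned them with STAR in two-pass mode to hg38 and quantified genes with Salmon and GENCODE annotation, and deposited the values as log2(TPM+1) per gene. Genes were compared with limma 3.58.1 (R 4.3.3, moderated variance without trend) on these values as deposited, with a pseudocount of 1, so fold changes understate those of low genes. Each pairwise comparison used its own 6 samples, and the difference between effects used all 12. Genes with a mean above 1 in any group of a fit were tested, p-values were two-sided and adjusted by Benjamini-Hochberg over all genes tested, and a call needed adjusted p under 0.05 and a log2 fold change above 0.48 in size. The script was tested on simulated data. The genes, families and signalling lists were chosen with earlier results of these data known. Of the signalling lists, 2 genes are not reported here, and the lists' counts and plot leave them out.

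Every one of the 85 genes called in a pairwise comparison was named with its statistics. Genes called for the difference between effects were named with its size, and only some with SE or p. Each gene with a group mean above 1 was given with values in DMSO and MS023, and the others as counts by family. Genes of the signalling lists called with MS023 were named. Columns were matched to samples by title, and all were used. Gene positions came from GENCODE release 44 on GRCh38, the build the authors' hg38 names, where all 85 genes were found, 32 of them overlapping another gene, and promoters from RefSeq GRCh38.p14. Alternatives were filters, a pseudocount of 0.1, median-ratio scaling, a variance trend, 1 fit of all samples, no fold threshold, the replicate number as a block, and each sample left out.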

Additional observations from a re-analysis of the deposited data

Results flagged for a closer look

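The change with MS023 differed from the change in PRMT1-KO by limma's test of the difference for 15 of the 26 interleukin and receptor genes tested. Of these, IL21R and IL11RA passed the filter of that fit only through MS023, where they were high. IL3RA and IL23A were below the filter level in isgCtrl and in PRMT1-KO. The difference (MS023 effect minus PRMT1-KO effect, log2 scale) was highest for IL10 (3.57), IL3RA (1.64), IL23A (1.39), IL2RG (0.98), IL11RA (0.87) and IL10RA (0.71). It was 0.67 for IL15, 0.64 for IL21R, 0.63 for IL12RB1, 0.61 for IL15RA, 0.60 for IL10RB and 0.60 for IL32. Lower values stood for IL17RB (-1.17), IL1RAPL2 (-0.95) and IL17D (-0.86). For IL10 the effects had opposite signs, 3.03 with MS023 and -0.54 in PRMT1-KO. IL10RB lost its call under 9 of 18 alternatives, IL15RA and IL21R under 7, IL11RA under 2 and IL23A (pseudocount of 0.1, limma adjusted p = 0.0879) and IL12RB1 (without the second PRMT1-KO sample) under 1. For IL21R and IL11RA these include the filter on the mean over all samples, under which they were not tested. No group had the 4 samples needed to look for single samples that stand apart.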

How the results depend on the processing

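With MS023 the count of 16 called genes ranged from 14 to 17 over the alternatives, and no called gene reversed its direction under any of them. Leaving out 1 sample gave 14 to 15, the block 15 (IL16 lost), no fold threshold 17 (IL4I1 added). In PRMT1-KO the count of 1 (IL10) went to 0 with all genes above 0 tested, to 0 with the replicate number as a block, and to 0 without any 1 sample. For the difference between effects the count of 15 ranged from 12 to 15, with 12 at a pseudocount of 0.1 and 12 to 15 without 1 sample. The cause was not tested. Differences that were not called changed sign in 20 cases over 9 genes, 17 of them with a sample left out. Under median-ratio scaling IL6R (0.0701) and IL27RA (0.0266) with MS023 and the difference between effects of IL4I1 (0.0822) did so. Without 1 sample the log2 fold change with MS023 ranged from -0.13 to 0.46 for IL12A, -0.0689 to 0.0289 for IL6R and -0.0779 to 0.203 for IL6ST. In PRMT1-KO it ranged from -0.0171 to 0.198 for IL15RA, -0.255 to 0.0631 for IL6ST, -0.193 to 0.0207 for IL17RA and -0.13 to 0.27 for IL17RC. The difference between effects ranged from -0.434 to 0.0997 for IL18BP, -0.0629 to 0.335 for IL17RC and -0.0428 to 0.0595 for IL4I1. Same-numbered samples deviated from their group means with r of 0.0213, 0.0732 and 0.102 (MS023 and DMSO) and -0.142, 0.0697 and -0.07 (PRMT1-KO and isgCtrl) across genes. Samples of unlike number had r of -0.0962 to 0.0298 and of -0.102 to 0.167. The numbers were not taken to pair the samples, which these values do not settle for MS023 and DMSO. The block lost no other pairwise call among the genes than IL10 and IL16. Depth is unknown in TPM, so a gene listed at 0 may be below detection, and 3 samples a group limit the precision of every value. Strand use, which bears on overlapping genes, was not stated.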
